A study of Bos taurus with 6 samples.

Results

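The genes described here are the EGF-like ligands AREG (amphiregulin), BTC (betacellulin) and HBEGF (heparin-binding EGF-like growth factor), the receptors EGFR, ERBB2 and ERBB3, and the membrane proteases ADAM10 and ADAM17. They were taken by name, as every probe whose platform symbol, or its current synonym, was one of these 8 genes. Of the 8 genes, 7 had a named probe and ERBB2 was not analysed here for want of one. The 7 genes had 11 probes among 43794 gene probes on the array, and 10 of the 11 were bright enough to be tested, among 32125 tested probes.

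Cumulus cells, which enclose the oocyte and feed it through cell junctions, were taken from Holstein dairy cows. In the cetrorelix condition, cows received FSH for 3 days and then no FSH for 68 h, and 12 mg of cetrorelix daily over 5 days, starting on day 2 of FSH and ending at collection. In the control condition, cows had the same FSH stimulation and 68 h withdrawal without cetrorelix. Both conditions thus share the FSH stimulation and its withdrawal. The labels name 6 cows for the study, give no age, and do not say which cows stand behind a replicate. Cetrorelix is known as an antagonist of the gonadotropin-releasing hormone receptor, although the labels call it an agonist, and it lowers luteinizing hormone (LH). There were 3 replicates per condition on 6 arrays of 2 colours, and the series' design gives each replicate a dye swap of Cy5 and Cy3. Same-numbered arrays were taken as the 2 arrays of a replicate. The labels do not say that such arrays hold the same RNA extracts, and the averages, their SD and n = 3 rest on this. The comparison addresses how cetrorelix, given from day 2 of FSH through its withdrawal, acts on cumulus gene expression. No LH values were at hand, so the lowering of LH was not tested. The p-values rest on the spread between these 3 replicates, which may be partly technical. The limma test draws the spread of each probe toward that of all probes, so a p-value does not measure the probe's own spread alone.

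EGF-like ligands are made as precursors anchored in the cell membrane. Proteases of the ADAM family, called sheddases, cut them loose: ADAM17 is the main sheddase of amphiregulin and HB-EGF, and ADAM10 is the main sheddase of betacellulin, as known mostly from mouse and human cells. The freed ligand binds receptors of the ERBB family, which pair up and signal through RAS and ERK and through PI3K and AKT. In the preovulatory follicle the LH surge induces EGF-like ligands, and these carry the LH signal to the cumulus, where EGFR signalling starts cumulus expansion. In the ARS-UCD2.0 gene table AREG and BTC are direct neighbours, with 0 listed genes between them.

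Signal is given as the raw median intensity of the spot divided by the median of the negative control spots of the same array and channel, averaged on the log scale over the 2 dye-swapped arrays of a replicate. These signals are not normalized between channels: summed over all tested genes they came to 147000, 137000 and 149000 in the cetrorelix replicates and 170000, 175000 and 148000 in the control replicates. A probe counted as above background on an array when it was brighter than the 95th percentile of negative control spots. With cetrorelix in Cy5, 54%, 40.9% and 46% of all probes passed for cetrorelix RNA in replicates 1, 2 and 3. For control RNA on those arrays 69.7%, 62.7% and 62.2% did. With cetrorelix in Cy3 the shares were 69.3%, 69.4% and 70.9% for cetrorelix and 66.7%, 63.9% and 54.8% for control RNA. The array counts of single genes were not corrected for these shares. The log2 ratio is cetrorelix over control after normalization within the array, averaged over the dye swap, and its error is the SD over the 3 replicates. Across the whole array, ratios from the 2 dye orientations were poorly alike. Between arrays of opposite orientation the correlation of the cetrorelix over control ratio over tested probes ranged from -0.31 to 0.26, against 0.27 to 0.33 among the arrays whose cetrorelix RNA carried Cy5 and 0.43 to 0.67 among those where it carried Cy3. The 2 arrays of replicate 3 correlated at -0.13, those of replicate 1 at 0.08 and those of replicate 2 at 0.26. Ratios were also narrower on some arrays. Their SD over tested probes was 0.319 in replicate 1 with cetrorelix in Cy3 and 0.323 in replicate 3 with cetrorelix in Cy5. On the other arrays it was 0.515 to 0.661. Each orientation had a slide of its own, so slide and dye cannot be told apart. A gene is called not above background where no probe of it passed on at least 3 of the 6 arrays in either condition. All 13 granulosa and cumulus markers passed. Their summed signal ran from 1180 to 1390 in the cetrorelix replicates and from 1130 to 1370 in the control replicates. Most of that sum was INHA, INHBA and SERPINE2, at geometric means of 361, 274 and 313 in cetrorelix and 257, 387 and 355 in control cells. SERPINE2 was saturated on 4 of 6 arrays. Like sums do not mean that no marker differed. Of the 13, 3 were higher and 0 lower at an unadjusted limma p under 0.05, where 7.18% of all tested genes were higher and 8.55% lower. These were GATA4, INHA and AMH, at log2 ratios of 1.07, 0.68 and 1.43 (limma adjusted p = 0.0833, 0.122 and 0.182). Some of these markers were faint, as FOXL2 at 1.43 in cetrorelix and 1.16 in control cells. Of 10 oocyte markers, 6 were not above background, GDF9, ZP2, ZP4, NLRP5, ZAR1 and DPPA3. The summed signal of the tested others lay between 6.7 and 9.35 in cetrorelix and between 6.61 and 7.71 in control cells. Among these, KPNA7 passed on 6 of 6 arrays in both conditions, at a geometric mean of 3.58 in cetrorelix and 3.29 in control cells. The rest, ZP3, BMP15 and DDX4, were fainter. Markers of other cell types passed as well, most of them faintly. Of 9 leukocyte markers 5 passed, PTPRC and CD68 on 6 of 6 arrays in both conditions, and CD14, CSF1R, CD79A and ITGAM did not, with a summed signal of 7.23 to 7.86 in cetrorelix and 7.02 to 7.99 in control cells. Of 9 endothelial markers 7 passed and PECAM1 and KDR did not, with sums of 9.49 to 9.91 in cetrorelix and 8.85 to 9.85 in control cells. Of 10 theca and stromal markers 7 passed and COL1A2, COL3A1 and DCN did not, with sums of 72.4 to 78.6 in cetrorelix and 66.2 to 73 in control cells. Most of that sum was ACTA2, at a geometric mean of 57.5 in cetrorelix and 47.6 in control cells, and PDGFRA, at 9.99 in cetrorelix and 13.6 in control cells. Of 6 erythrocyte markers 5 passed, HBA, AHSP and GYPC on 6 of 6 arrays in both conditions, and ALAS2 did not, with sums of 8.44 to 11.8 in cetrorelix and 7.54 to 9.29 in control cells. The part of other cell types in the results was not tested.

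Most genes of the ligand and receptor system gave a faint signal in both conditions, and none changed past the test. None of the 7 genes had a limma adjusted p under 0.05, where 0.00806% of 12400 tested genes did. At an unadjusted p under 0.05, 1 of 7 genes was lower (BTC) and 0 were higher, against 15.7% of all tested genes in either direction. Of the 7 genes, 5 lay below 0 and 2 above. Their median log2 ratio was -0.12, where the median of all tested genes was -0.01. The signal of 0 of the 7 genes separated the 3 cetrorelix replicates from the 3 control replicates without overlap, where 17% of tested genes did so. None of the 7 kept the same sign on all 6 arrays, where 9.76% of tested genes did. In a preparation of whole cumulus, fewer cells of a type and less RNA per cell cannot be told apart.

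**Figure D1:**
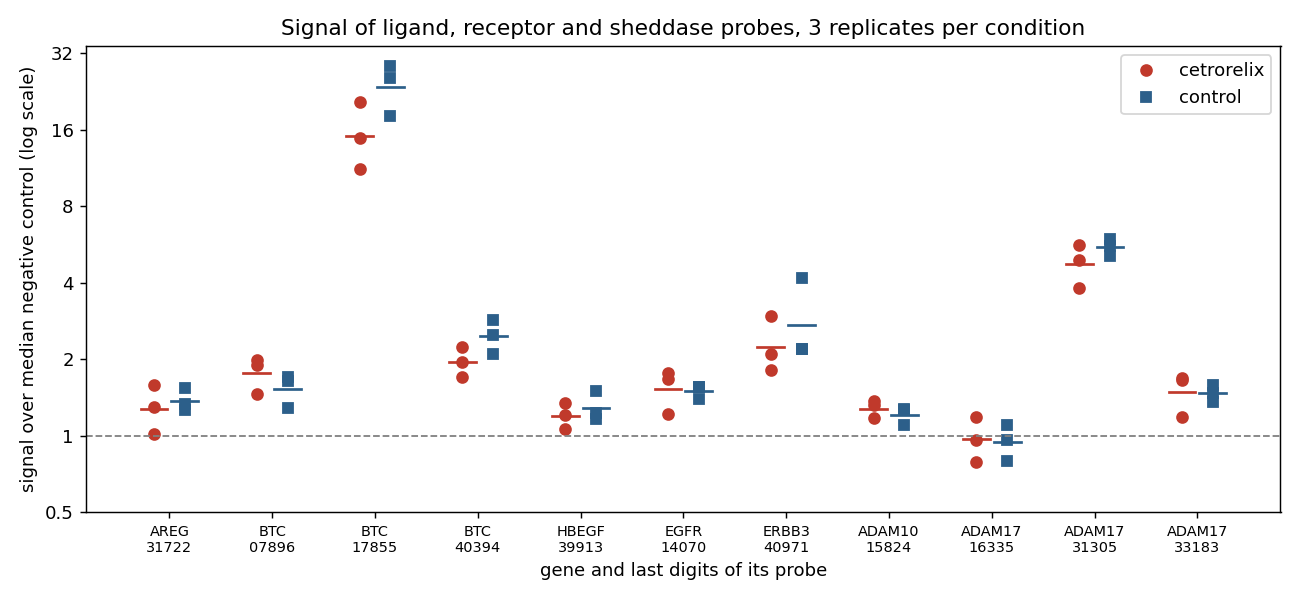
Signal over the median negative control (log scale) of all 11 probes in the 3 cetrorelix replicates (circles) and the 3 control replicates (squares), with the geometric mean as a line and the negative control level dashed. One BTC probe lies at 11.2 to 20.6 in cetrorelix and 18.1 to 28.5 in control cells, one ADAM17 probe at 3.82 to 5.62 and 5.08 to 5.92, and the other probes lie within a few fold of the negative controls with overlapping groups.

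Amphiregulin, a ligand of EGFR that LH induces in the follicle, was close to background. The AREG probe (EMBV3_31722) had signals of 1.02, 1.3 and 1.59 in cetrorelix replicates 1, 2 and 3, against 1.26, 1.33 and 1.54 in the control replicates. The groups overlapped, and the lowest value belonged to cetrorelix replicate 1. Cetrorelix cells had AREG above background on 4 of 6 arrays and control cells on 6 of 6. Its log2 ratio was -0.15 ± 0.23 (SD, n = 3, limma adjusted p = 0.859), with a 95% interval for the fold of 0.708 to 1.15. The ratio was -0.41 in replicate 1 and -0.03 and 0.01 in replicates 2 and 3, so the mean rested on replicate 1. Within replicate 1, the Cy5-labelled cetrorelix array gave -0.83 and the Cy3-labelled one 0.00, and without that replicate AREG lay at -0.01. That Cy3 array had narrow ratios over all tested probes (SD 0.319, against 0.538 on the Cy5 array), so its 0.00 does not show an absence of change.

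HB-EGF, which binds EGFR and ERBB4 and also heparan sulphate, was as faint. The HBEGF probe (EMBV3_39913) had signals of 1.34, 1.06 and 1.21 in the cetrorelix replicates and 1.16, 1.23 and 1.5 in the control replicates, and these groups overlapped. Cetrorelix cells had it above background on 3 of 6 arrays and control cells on 4 of 6. With the signal in Cy5 it passed on 1 of 3 arrays for cetrorelix and 1 of 3 for control RNA, and with the signal in Cy3 on 2 of 3 for cetrorelix and 3 of 3 for control RNA. HBEGF had a log2 ratio of -0.12 ± 0.20 (SD, n = 3, limma adjusted p = 0.892) and an interval for the fold of 0.726 to 1.17. Replicates 1, 2 and 3 lay at 0.09, -0.29 and -0.16, on both sides of 0.

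Betacellulin, a ligand of EGFR and ERBB4 that LH also induces in the follicle, had the lowest p of the 7 genes and was the only one of the 3 ligands with a probe above background in both conditions on all 6 arrays. Its brightest probe (EMBV3_17855) had signals of 20.6, 11.2 and 14.8 in the cetrorelix replicates, against 25.5, 28.5 and 18.1 in the control replicates. Each cetrorelix replicate lay below its own control, but cetrorelix replicate 1 lay above control replicate 3, so the groups overlapped. BTC had a log2 ratio of -0.42 ± 0.43 (SD, n = 3), a fold of 0.746 with an interval of 0.558 to 0.998. The unadjusted p was 0.0489 and the limma adjusted p was 0.446, so it did not pass over all probes. Of all tested genes, 14.6% had a larger absolute log2 ratio than BTC, and 79.5% had a smaller SD over replicates.

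The lower value of BTC came mostly from replicate 2. The replicate ratios were -0.07, -0.90 and -0.30, and without replicate 2 the mean was -0.18 (unadjusted p = 0.338). Replicate 2 was low in both dye orientations, at -1.0 where cetrorelix RNA carried Cy5 and -0.81 where it carried Cy3. Replicate 3 lay at -0.53 and -0.07 in these orientations and replicate 1 at 0.08 and -0.21, so that 5 of 6 arrays lay below 0. The mean was -0.48 where cetrorelix RNA carried Cy5 and -0.36 where it carried Cy3, and the difference between orientations was -0.12 (limma adjusted p = 0.849). In the replicate 2 array with cetrorelix in Cy5, only 40.9% of all probes were above background in the cetrorelix channel, the lowest share of any channel, and the part of this in the BTC value was not tested.

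The other BTC probes did not settle the direction. A second probe (EMBV3_40394) had signals of 2.23, 1.95 and 1.71 in the cetrorelix replicates and 2.85, 2.5 and 2.1 in the control replicates. Each cetrorelix replicate lay below its own control, and the groups overlapped. It had a log2 ratio of -0.33 ± 0.18 (SD, n = 3, unadjusted p = 0.0537, limma adjusted p = 0.465) and lay below 0 on 5 of 6 arrays. The remaining probe (EMBV3_07896) had signals of 1.9, 1.99 and 1.46 in the cetrorelix replicates and 1.29, 1.64 and 1.7 in the control replicates, with a log2 ratio of 0.14 ± 0.38 (limma adjusted p = 0.893). This probe lay above 0 on 5 of 6 arrays, opposite to the first and the second. The mean of the 3 BTC probes was -0.21 (unadjusted p = 0.201). Which transcript each probe reads was not analysed here.

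**Figure D2:**
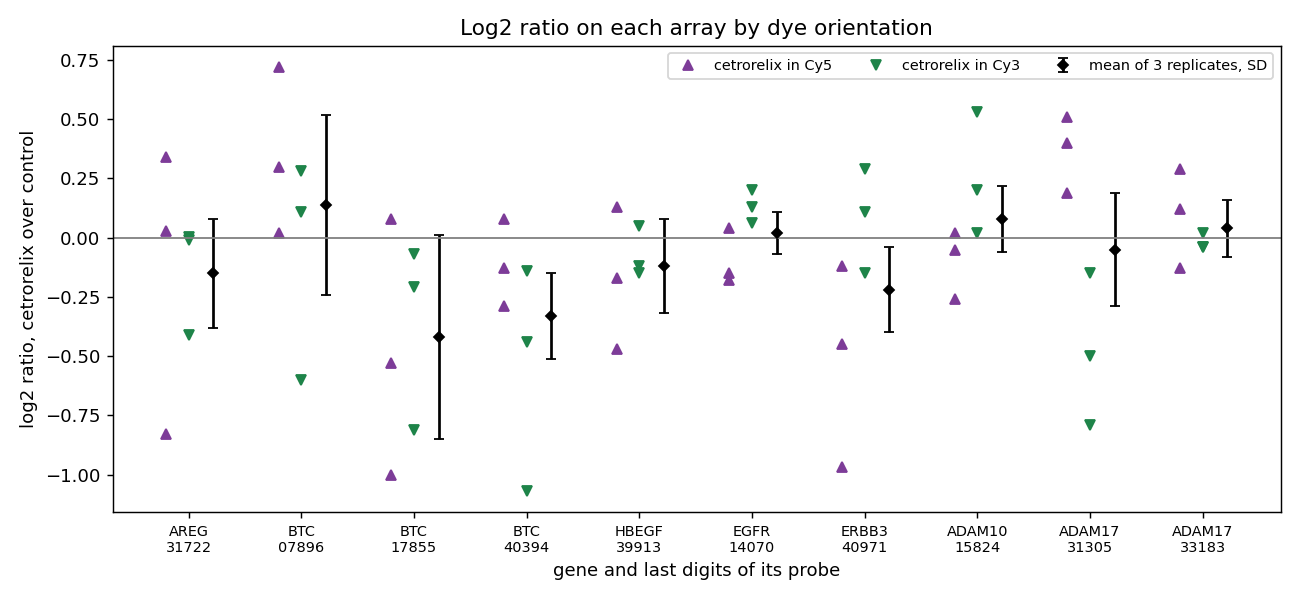
Log2 ratio of cetrorelix over control on each array for the 10 tested probes, with cetrorelix in Cy5 (triangles up), with cetrorelix in Cy3 (triangles down), and the mean ± SD of the 3 replicates (diamonds). The brightest BTC probe lies below 0 on 5 of 6 arrays, while the brightest ADAM17 probe lies above 0 on 3 of 3 arrays of the Cy5 orientation and below 0 on the other 3.

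EGFR, the receptor through which amphiregulin and betacellulin act on cumulus cells, had the smallest difference of the 7 genes. The EGFR probe (EMBV3_14070) had signals of 1.67, 1.76 and 1.22 in the cetrorelix replicates and 1.55, 1.56 and 1.4 in the control replicates. The control values lay inside the range of the cetrorelix values. Cetrorelix cells had EGFR above background on 5 of 6 arrays and control cells on 6 of 6. Its log2 ratio was 0.02 ± 0.09 (SD, n = 3, limma adjusted p = 0.987), with an interval for the fold of 0.807 to 1.27. Of all tested genes, 94.3% had a larger absolute log2 ratio. Its sign turned with the processing, to -0.01 without background correction and -0.01 in the deposited log2 values. The EGFR signal was near the negative controls, and the background correction used pulls ratios of such dim probes toward 0. The small ratio and its interval thus do not show an absence of change, and the same holds for AREG, HBEGF and ADAM10.

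ERBB3, a receptor with little kinase activity of its own that binds neuregulins and signals in pairs with other ERBB receptors, did not pass the test, and its means in the 2 dye orientations had opposite signs. The ERBB3 probe (EMBV3_40971) had signals of 2.95, 1.82 and 2.09 in the cetrorelix replicates and 4.16, 2.2 and 2.19 in the control replicates. Each cetrorelix replicate lay below its own control, and the groups overlapped. The log2 ratio was -0.22 ± 0.18 (SD, n = 3, limma adjusted p = 0.727), with an interval for the fold of 0.681 to 1.09. The replicates lay at -0.30, -0.34 and -0.01. By orientation the mean was -0.52 where cetrorelix RNA carried Cy5 and 0.09 where it carried Cy3, a difference of -0.60 (unadjusted p = 0.0224, limma adjusted p = 0.127). With ADAM17, described next, 2 of the 7 genes differed between orientations at an unadjusted p under 0.05, where 24.9% of tested genes did.

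The sheddases did not differ between conditions past the test either. ADAM10, the main sheddase of betacellulin, had signals of 1.37, 1.32 and 1.18 in the cetrorelix replicates and 1.27, 1.26 and 1.1 in the control replicates (probe EMBV3_15824). Each cetrorelix replicate lay slightly above its own control, and the groups overlapped. In cetrorelix cells ADAM10 was above background on 0 of 3 arrays read in Cy5 and on 3 of 3 read in Cy3, and in control cells on 1 of 3 in Cy5 and 2 of 3 in Cy3. Its log2 ratio was 0.08 ± 0.14 (SD, n = 3, limma adjusted p = 0.943), with an interval for the fold of 0.838 to 1.33.

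ADAM17, the main sheddase of amphiregulin and HB-EGF, had 3 probes. Its brightest probe (EMBV3_31305) had signals of 4.92, 3.82 and 5.62 in the cetrorelix replicates and 5.08, 5.92 and 5.57 in the control replicates. The groups overlapped, with cetrorelix replicate 2 lowest. The log2 ratio was -0.05 ± 0.24 (SD, n = 3, limma adjusted p = 0.967), with an interval for the fold of 0.753 to 1.23, and the replicates lay at 0.18, -0.30 and -0.05. A second probe (EMBV3_33183) had signals of 1.66, 1.68 and 1.19 in the cetrorelix replicates and 1.47, 1.58 and 1.36 in the control replicates, with a log2 ratio of 0.04 ± 0.12 (limma adjusted p = 0.977). The remaining probe (EMBV3_16335) was not well above background on any array in either condition and was not tested.

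The near-zero mean of ADAM17 joined opposite values of the 2 dye orientations. With cetrorelix in Cy5 the brightest probe lay at 0.51, 0.19 and 0.40 in replicates 1, 2 and 3, and with cetrorelix in Cy3 it lay at -0.15, -0.79 and -0.50. The orientations did not overlap. The difference between them was 0.85, with an interval of 0.33 to 1.36, and passed the test over all probes (limma adjusted p = 0.016). It did so for 1 of the 7 genes, where 12.7% of all tested genes passed that test. ADAM17 was also the only one of the 7 with the 3 arrays of each orientation on opposite sides of 0, where 8.91% of tested genes were. Averaging over the swap cancels a dye effect of equal size on both arrays, and whether it was of equal size was not tested.

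**Figure D3:**
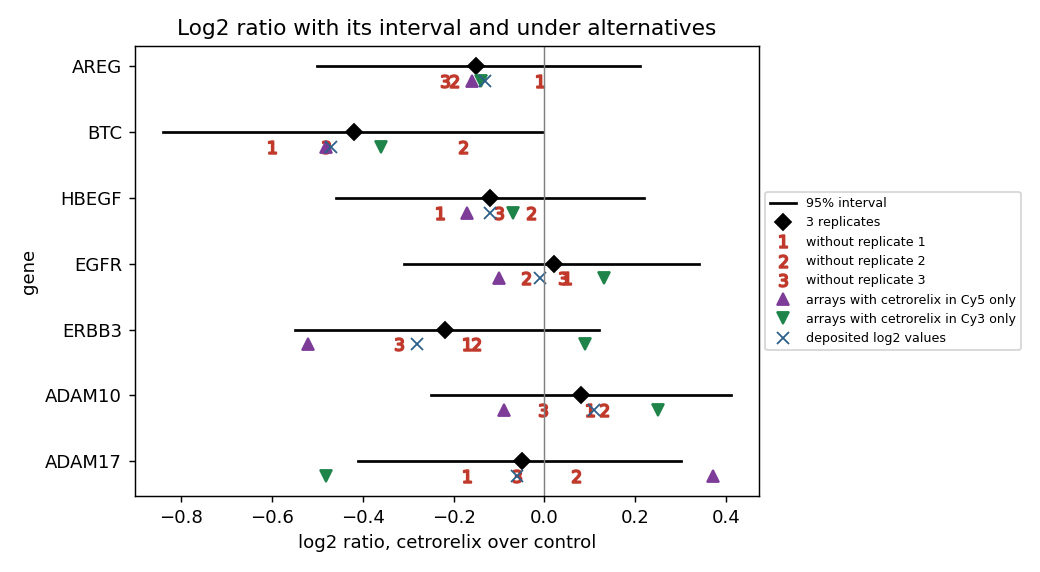
Log2 ratio of cetrorelix over control for the brightest probe of each of the 7 genes (diamonds) with its 95% interval from limma (lines). Beneath each are the values without replicate 1, 2 or 3 (digits), from the arrays of one dye orientation alone (triangles) and from the deposited log2 values (crosses). EGFR, ADAM10 and ADAM17 have values on both sides of 0 as replicates are left out, and BTC stays below 0 in all of those shown.

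Beside BTC and EGFR, the others of the 7 genes were also exceeded in absolute log2 ratio by many tested genes. The share of tested genes with a larger one was 35.8% for ERBB3, 50.9% for AREG, 58.3% for HBEGF, 71.6% for ADAM10 and 79.5% for ADAM17. The median of the 7 genes was -0.05, -0.29 and -0.03 in replicates 1, 2 and 3, so replicate 2 lay lowest. By orientation it was -0.16 where cetrorelix RNA carried Cy5 and -0.07 where it carried Cy3. The 3 genes whose ratios over the 6 arrays lay nearest to those of BTC were POGLUT1, REEP3 and CARD6. Their root mean square differences from BTC over the 6 arrays were 0.104, 0.112 and 0.119 on the log2 scale, against a median of 0.672 over 12393 genes. As they were picked for small differences, these values and the means below lie near BTC by choice. The mean log2 ratios of POGLUT1, REEP3 and CARD6 were -0.38 ± 0.37, -0.48 ± 0.47 and -0.33 ± 0.46 (SD, n = 3, limma adjusted p = 0.485, 0.392 and 0.63).

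**Figure D4:**
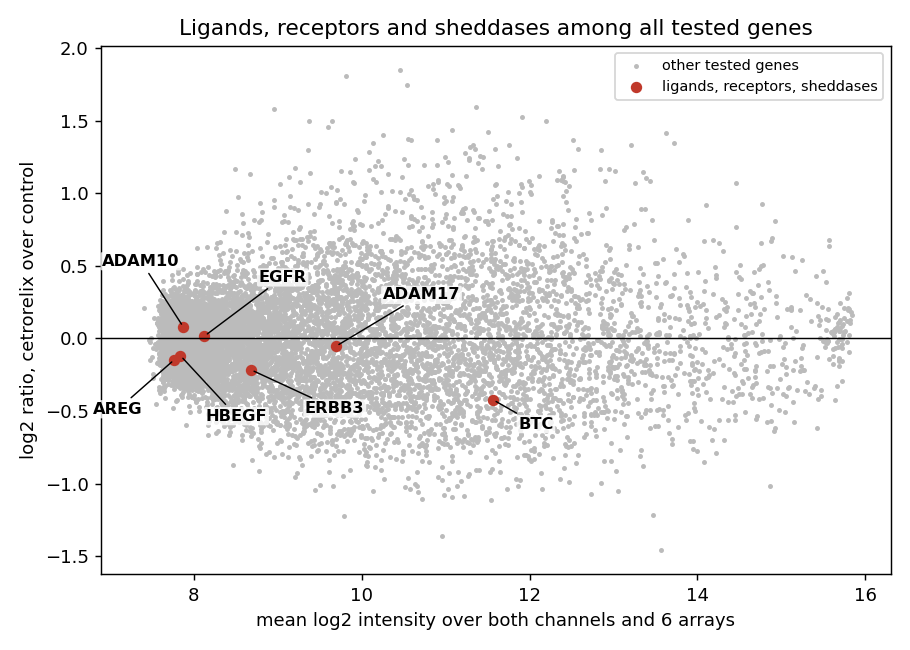
Log2 ratio of cetrorelix over control against mean log2 intensity over both channels and 6 arrays, for each tested gene by its brightest probe (grey) and for the 7 genes (red). AREG, HBEGF, ADAM10 and EGFR lie at the dim end of the array with small ratios, and BTC lies farther right at -0.42.

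The rest of the pathway was read from 89 listed genes outside the 8, of which 64 could be tested. None had a limma adjusted p under 0.05. At an unadjusted p under 0.05, 6 were higher and 6 were lower after cetrorelix, where 7.18% of all tested genes were higher and 8.55% lower. The 12 genes were 18.8% of the 64, beside 15.7% of all tested genes. The replicate number as a block, without a dye orientation term, also gave 0 of the 64 an adjusted p under 0.05. The fit with the block and a dye orientation term was chosen after seeing the data. Both block fits took the 6 dye-swapped arrays as units. The correlation fitted within replicates was low, -0.0259 with the block alone and 0.253 with the dye orientation term. Arrays of a replicate thus counted largely as separate units, and the p-values of these fits rest on more units than the 3 replicates. The fit with the dye orientation term is quoted below for RHBDF1, GAB1 and VCAN, picked because only these 3 of the 64 had an adjusted p under 0.05 in it. Of all 32125 tested probes, 768 had one in that fit, against 4 in the test on replicate averages. With the block and the dye orientation term, MAP2K1, TSPAN17 and ADAMTS1 had limma adjusted p values of 0.0539, 0.0607 and 0.119. Between dye orientations, 9 of the 64 genes differed at an adjusted p under 0.05, or 14.1%, beside 12.7% of all tested genes.

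Other ligands and receptors of the family were dim. TGFA, a ligand of EGFR, and ERBB4, the receptor that BTC and HBEGF can also bind, were not above background often enough to be tested, and EREG, EPGN, NRG2 and NRG4 were not analysed here. The mean ratios of the 3 tested genes lay close to 0. The neuregulin NRG3 had a log2 ratio of -0.11 ± 0.16 (SD, n = 3, limma adjusted p = 0.902), and EGF itself had -0.01 ± 0.21 (adjusted p = 0.994), with a second probe at 0.13. As for ADAM17, the mean of the brightest EGF probe joined opposite values, -0.42 where cetrorelix RNA carried Cy5 and 0.41 where it carried Cy3, a difference of -0.83 (limma adjusted p = 0.0188). Cetrorelix cells had NRG3 above background on 2 of 6 arrays and control cells on 3 of 6.

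Among 11 tested partners and inhibitors of the sheddases, 2 were higher and 0 lower at an unadjusted p under 0.05, with a median log2 ratio of 0.06. RHBDF1, an inactive rhomboid protein (iRhom1) that carries ADAM17 to the cell surface, had replicate ratios of 0.31, 1.61 and 0.77, all above 0. Its log2 ratio was 0.90 ± 0.66 (SD, n = 3, unadjusted p = 0.00403, limma adjusted p = 0.182), higher on 6 of 6 arrays, and without replicate 2 it was 0.54. With the 6 arrays as units and the replicate number as a block, RHBDF1 had a limma adjusted p of 0.0919. With a dye orientation term added it was 0.028. TSPAN17, a tetraspanin that binds ADAM10, had ratios of 0.68, 0.62 and 0.40, with a mean of 0.57 ± 0.15 (limma adjusted p = 0.182), also higher on 6 of 6 arrays. The related TSPAN14 and TSPAN5 lay at -0.23 ± 0.12 and -0.10 ± 0.18 (limma adjusted p = 0.684 and 0.922). RHBDF2, the other iRhom, ADAM12 and FURIN were not above background.

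Adaptors and kinases from the receptor to ERK lay on both sides of 0. Of 14 tested, 1 was higher and 3 were lower at an unadjusted p under 0.05, with a median of 0.06. GAB1, a docking protein for activated EGFR, had replicate ratios of -0.33, -0.78 and -0.80 and a log2 ratio of -0.63 ± 0.27 (SD, n = 3, limma adjusted p = 0.176), lower on 6 of 6 arrays, and its second probe lay at -0.17. With the arrays as units, GAB1 had a limma adjusted p of 0.0654 with the replicate block. It was 0.0386 with the block and a dye orientation term. MAP2K1, one of the 2 kinases that activate ERK, had ratios of -0.31, -1.18 and -0.50 and a mean of -0.66 ± 0.45 (limma adjusted p = 0.215), lower on 6 of 6 arrays and at -0.41 without replicate 2. MAP2K2, the other such kinase, lay on the opposite side, with 0.32, 0.48 and 0.15, a mean of 0.32 ± 0.16 (limma adjusted p = 0.485) and 6 of 6 arrays higher. ARAF, a RAF kinase upstream of both, had ratios of 0.31, 0.81 and 0.21 and a mean of 0.44 ± 0.33 (limma adjusted p = 0.356), with 0.26 without replicate 2. Its mean was 0.05 where cetrorelix RNA carried Cy5 and 0.84 where it carried Cy3, a difference of -0.79 (limma adjusted p = 0.0276). BRAF and RPS6KA3 were not above background.

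Genes of receptor feedback and trafficking had 1 higher and 2 lower of 19 tested at an unadjusted p under 0.05, with a median of 0.05. LRIG3, a leucine-rich repeat protein related to the EGFR inhibitor LRIG1, lay at a log2 ratio of -0.46 ± 0.39 (SD, n = 3, limma adjusted p = 0.373), with a second probe at -0.53, and it was -0.24 without replicate 2. EPS15, which takes part in endocytosis of EGFR, lay at -0.38 ± 0.26 (limma adjusted p = 0.416), lower on 6 of 6 arrays. HGS and STAM2, which sort receptors in endosomes, lay at 0.58 ± 0.64 and 0.24 ± 0.05 (limma adjusted p = 0.374 and 0.653). HGS was 1.31 in replicate 2 and 0.29 and 0.14 in replicates 1 and 3. CBL, the ubiquitin ligase of EGFR, and GRB7 and SOCS3 were not above background.

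In the PI3K and AKT arm, 1 of 9 tested genes was lower and 0 were higher at an unadjusted p under 0.05. PIK3CA, the alpha catalytic subunit, had ratios of -0.66, -0.45 and -0.20, with a mean of -0.44 ± 0.23 (SD, n = 3, limma adjusted p = 0.313), lower on 6 of 6 arrays. AKT2 lay at 0.41 ± 0.75 (limma adjusted p = 0.671), with 0.79 and 0.89 in replicates 1 and 2 and -0.46 in replicate 3. The regulatory subunit PIK3R2 lay at 0.19 ± 0.30 (limma adjusted p = 0.803), with a second probe at -0.06. PIK3CB and PIK3CD were not above background.

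Of 8 tested genes that EGF-like ligands induce in the expanding cumulus, or that take part in the response, 2 were higher and 0 lower at an unadjusted p under 0.05. VCAN, a proteoglycan of the expanded matrix, had ratios of 1.90, 2.03 and 0.20 and ADAMTS1, the protease that cuts it, 0.83, 0.62 and 0.22, and in both replicate 3 was lowest. Their limma adjusted p values were 0.151 and 0.23. With the arrays as units, VCAN had 0.0625 with the replicate block and 0.0077 with the block and a dye orientation term. The prostaglandin synthase PTGS2 passed background on 1 of 6 arrays for cetrorelix cells and on 3 of 6 for control cells, at a log2 ratio of -0.06 ± 0.24 (limma adjusted p = 0.964), and the progesterone receptor PGR lay at -0.36 ± 0.49 (limma adjusted p = 0.591). The others tested, HAS2, PTX3, TNFAIP6 and CD44, were dim, with geometric mean signals from 1.17 to 1.58 over both conditions. They lay at -0.02, 0.04, 0.15 and 0.14 (limma adjusted p = 0.987, 0.977, 0.825 and 0.859). HAS2 was 0.40 with cetrorelix in Cy5 and -0.44 with it in Cy3 (limma adjusted p = 0.0167 for the difference). The LH receptor LHCGR and TNFAIP3 were not above background.

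**Figure D5:**
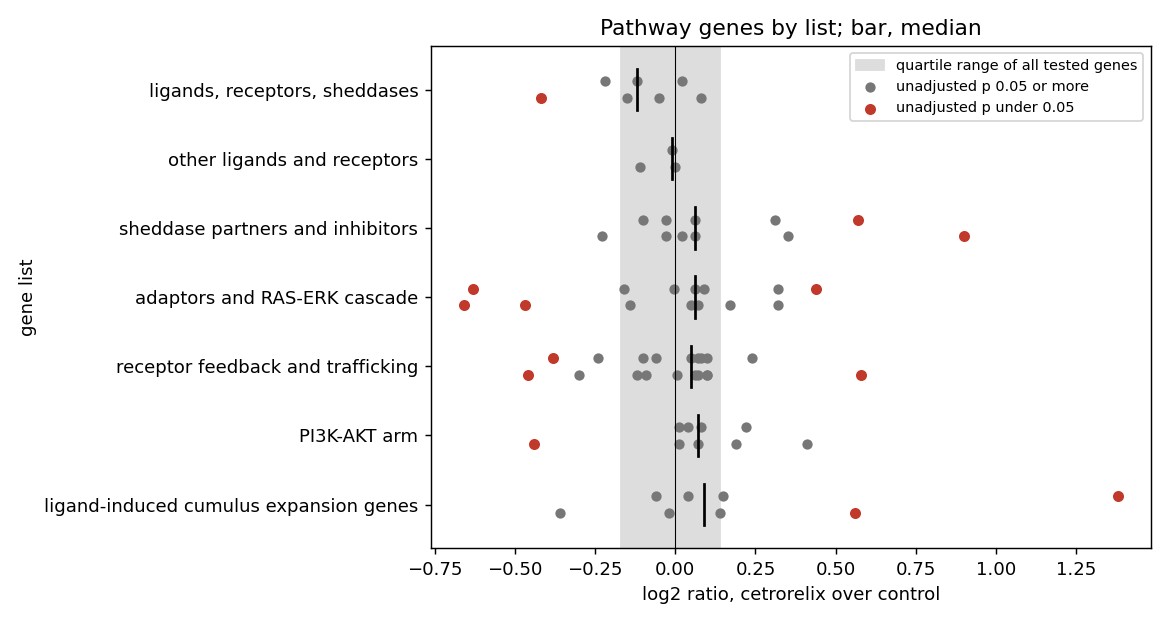
Log2 ratio of cetrorelix over control of each tested gene by list, by its brightest probe, with the list median as a bar and the quartile range of all tested genes, -0.17 to 0.14, shaded. Red points have an unadjusted p under 0.05, 1 among the 7 genes (BTC) and 12 among the 64 other pathway genes, and none has an adjusted p under 0.05.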

How the data were processed

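Per the file headers, the deposited scanner tables hold raw median intensity and median local background intensity per spot for 532 nm (Cy3) and 635 nm (Cy5), and no source used here names the image analysis program. Normalized log2 ratios were deposited by the authors as well. These series values equalled the other normalized table turned to cetrorelix over control, within 5e-06, and followed the scanner ratios computed here (r from 0.842 to 0.996 per array). Per the submitters' processing notes limma was used, with no settings, so the scale and direction are known and the centring method is not (column medians 0.0123, -0.0333, 0.00954, -0.00682, -0.0113 and -0.0167).

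Here, marked spots (36 to 94 per array) were left out, background was corrected by normexp with offset 50, which pulls ratios of dim probes toward 0, and ratios were normalized by loess within arrays with control spots at weight 0. Probes above the 95th percentile of 153 negative controls on at least 3 arrays of a condition were tested. Dye-swapped arrays were averaged per replicate, and limma 3.58.1 (R 4.3.3) tested the 3 averages against 0, two-sided, p-values being adjusted over 32125 probes by Benjamini-Hochberg. The test of cetrorelix over control was checked on simulated replicate averages with known changes. The difference between dye orientations was tested likewise. Its 95% intervals were about equally wide for probes of unlike spread, as -0.54 to 0.50 for AREG and 0.33 to 1.36 for the brightest ADAM17 probe. A p-value of that test thus followed the size of the difference, with little weight on the spread of the probe. Arrays have no read depth, so their number limits the precision, and the share of probes above background ran from 40.9% to 70.9% per channel.

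Each gene is represented by the probe of highest mean intensity, which the text calls its brightest. Symbols came from the platform annotation, where 21790 probes had 1 symbol, 0 several and 22004 none, and 20025 matched a current symbol of ARS-UCD2.0, 1524 a synonym and 241 neither. The pairing of arrays comes from the series' dye swap design. Deviations of same-numbered arrays from their orientation means correlated at 0.23, 0.40 and 0.42. Without such values for arrays of different numbers, these do not test the pairing. The correlation within replicates fitted by limma was -0.0259 with the block alone and 0.253 with a dye orientation term. The members and gene lists were chosen with earlier results of these data known. From each pathway list the text names up to 2 genes above and 2 below 0 of lowest p, and those not above background, and it names the 3 genes nearest to the member of lowest p. SHC1, at an unadjusted p under 0.05, fell outside that rule. Also outside it, HAS2, PTX3, TNFAIP6 and CD44 are named to complete their list. Alternatives tried were no background correction, median centring, no dim filter, probe means, a replicate block, the deposited values, each replicate or orientation left out, and, chosen after seeing the data, the block with a dye orientation term.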

Additional observations from a re-analysis of the deposited data

Results flagged for a closer look

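The brightest ADAM17 probe (EMBV3_31305) stood out because every array with cetrorelix in Cy5 lay above 0 and every array with cetrorelix in Cy3 lay below 0. The mean log2 ratio was 0.37 in the Cy5 orientation and -0.48 in the Cy3 orientation, and the difference of 0.85 passed limma's test over all probes (adjusted p = 0.016). The effects of the slide and of the dye cannot be told apart, as each orientation had its own slide. Groups of 3 replicates were too small to be screened for outlying samples.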

How the results depend on the processing

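None of the 7 genes passed an adjusted p of 0.05 under any of 12 alternatives each, and their median log2 ratio of -0.12 stayed between -0.17 and -0.04. AREG, BTC and HBEGF stayed below 0 under all of them, BTC between -0.60 and -0.18 with limma adjusted p between 0.279 and 1. Its unadjusted p was under 0.05 under 6 of 12. The count of such genes, 1, was 0 without background correction and 0 with probe means, and 0 to 1 leaving out a replicate. With arrays of cetrorelix in Cy5 alone, ADAM10 (-0.09), ADAM17 (0.37) and EGFR (-0.10) changed sign, and with cetrorelix in Cy3 alone ERBB3 did (0.09). EGFR was -0.01 without background correction and -0.01 in the deposited values. Leaving out a replicate moved ADAM10 between -0.0029 and 0.13, ADAM17 between -0.17 and 0.07 and EGFR between -0.04 and 0.05.

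Of all tested probes 4 passed. The count was 7 without the dim filter, 0 with probe means (1604 genes at an unadjusted p under 0.05), 9 with the deposited values, 234 with the replicate block, 768 with the block and a dye orientation term, and 516 and 1134 with cetrorelix in Cy5 or Cy3 alone. Leaving out a replicate gave 0 to 1254 (0 without replicate 1, with 2423 at an unadjusted p under 0.05). The 0 pathway genes stayed 0 with the replicate block and became 3 with the block and a dye term, 1 and 3 by orientation (Cy5 and Cy3), and 0 to 3 leaving out a replicate: VCAN without replicate 2, and VCAN, RHBDF1 and AKT2 without replicate 3. The 3823 probes that differed between orientations were 6047 under median centring, 1138 with probe means and 1829 to 3433 leaving out a replicate. The cause of these changes was not tested. Both block fits took arrays, not replicate averages, as units. Fits on 2 replicates have 1 residual degree of freedom per probe, and their p-values can put little weight on a probe's own spread. Without replicate 2, VCAN passed at 1.05 from replicate ratios of 1.90 and 0.20. Without replicate 3, RHBDF1 passed at 0.96 from ratios of 0.31 and 1.61. With 3 replicates, the 95% intervals of 6 of the 7 genes included a log2 ratio of 0, and that of BTC ended just below it. In cetrorelix cells AREG, HBEGF, EGFR, ERBB3 and ADAM10 were above background on part of the arrays only, and in control cells HBEGF and ADAM10 were.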
